A study of Rattus norvegicus with 12 samples.

Results

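The transcripts described here are those of 10 tubulin isotypes, 5 alpha (Tuba1a, Tuba1b, Tuba1c, Tuba4a and Tuba8) and 5 beta (Tubb2a, Tubb2b, Tubb2c, Tubb5 and Tubb6), in the rat liver. They were found by gene name in a table of 34391 transcripts with 24355 gene names. Of the 10 names, 9 had a row. No row carried the name Tuba8, and its level is not analysed here. Tubb5 had a second row at 0 in all 12 livers, so each of the 9 isotypes is described by 1 row. Tubb2c is the older name of the gene now called Tubb4b, and the name in the table is kept.

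The livers came from female rats of the inbred alcohol-preferring strain iP10a. The 6 EtOH animals could drink from bottles of 10, 20 and 30% ethanol (v/v) as well as tap water for 23 weeks, and the 6 control animals had tap water. All 12 had free access to food and were 38 weeks old at collection, apart from EtOH animal 6, at 39 weeks. Poly(A) RNA of the whole liver was sequenced from 1 library per animal, and the libraries were barcoded and run together in 1 lane. The strain is inbred and drinks by choice, so intake was not set by the experimenter. In whole liver, fewer cells of a type and less RNA per cell cannot be told apart.

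Alpha and beta tubulin join as a heterodimer, and the heterodimers add end to end to form the wall of the microtubule. In the hepatocyte, microtubules carry vesicles of secreted proteins such as albumin and very-low-density lipoprotein to the cell surface, and hold organelles in place. Mammals make several alpha and beta isotypes from separate genes, which differ mainly near the C-terminal tail, where motors, severing proteins and modifying enzymes bind. Cells also adjust their tubulin mRNA to the pool of free dimer, through decay of the mRNA while it is translated.

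The 6 most abundant isotypes fell into 4 that were lower in EtOH animals and 2 that were not called, and the bases upstream of these 6 genes are shown so that their promoters can be compared. Each line holds the 120 bases before the transcription start, 5′ to 3′ on the strand of the gene, from RefSeq on GRCr8. Capitals mark matches, on either strand, to a CCAAT box (CCAAT), a GC box (GGGCGG) and, on the strand of the gene, a TATA element (TATAA, which is also part of the longer TATAAA). The TATAA letters were chosen after these sequences had been read.
Tuba4a, chr9:84162585-84162704, minus strand: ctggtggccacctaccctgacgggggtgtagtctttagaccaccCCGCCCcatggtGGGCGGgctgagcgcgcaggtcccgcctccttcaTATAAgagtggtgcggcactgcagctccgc
Tubb2a, chr17:31002066-31002185, plus strand: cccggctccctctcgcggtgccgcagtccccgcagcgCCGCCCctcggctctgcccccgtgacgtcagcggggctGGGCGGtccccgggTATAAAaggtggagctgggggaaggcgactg
Tubb2c, chr3:28438456-28438575, minus strand: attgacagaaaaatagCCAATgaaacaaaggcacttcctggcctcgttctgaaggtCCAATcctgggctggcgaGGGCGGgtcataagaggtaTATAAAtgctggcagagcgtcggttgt
Tuba1c, chr7:132070864-132070983, plus strand: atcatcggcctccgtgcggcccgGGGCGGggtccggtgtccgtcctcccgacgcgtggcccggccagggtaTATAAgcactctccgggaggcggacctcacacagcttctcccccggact
Tuba1b, chr7:131972588-131972707, minus strand: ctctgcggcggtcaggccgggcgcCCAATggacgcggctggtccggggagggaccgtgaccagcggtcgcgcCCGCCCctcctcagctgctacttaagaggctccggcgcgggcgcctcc
Tubb5, chr20:2917457-2917576, plus strand: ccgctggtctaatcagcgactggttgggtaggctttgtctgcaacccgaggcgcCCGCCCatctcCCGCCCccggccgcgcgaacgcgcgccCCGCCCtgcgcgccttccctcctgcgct

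All 4 isotypes that were lower in EtOH animals had TATAA on the strand of the gene, beginning 30 bases before the start in Tuba4a, 31 in Tubb2a, 27 in Tubb2c and 49 in Tuba1c. Neither Tuba1b nor Tubb5, which were not called, had it in these 120 bases. Among the other isotypes, it stood 60 bases before the start of Tuba1a and was not in the window of Tubb6, Tubb2b or Tuba8. Of 27457 rat promoters, 9.23% held TATAA on the strand of the gene in this window. In the 250 bases before the start, searched on both strands, a GC box was found in 8 of the 10 isotypes and in 32.4% of all promoters. G and C made up 52.0 to 80.4% of these bases in the isotypes, against a median of 52.0% over all promoters. A CCAAT box was found in 7 of 10 and in 34.3% of all promoters, with 4 matches before Tubb2c and none before Tuba4a or Tubb2a. On this wider search TATAA was found in 5 of 10 and in 24.1% of all promoters. It was chosen after the sequences had been read, so its place beside the calls is only a description. The longer TATAAA was found in 2 of 10, Tubb2a and Tubb2c, and in 13.1% of all promoters. An E box (CACGTG) was found in 2 of 10 and in 5.79% of all promoters, and an AP-1 site (TGANTCA) in 0 of 10 and in 6.36% of all promoters. These matches are descriptions of letters and say nothing of the factors that bind there.

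Each liver had between 2610238 and 6030028 reads assigned to transcripts, as recovered from the steps between low values. The EtOH libraries were deeper, at 3945593 to 6030028 reads against 2610238 to 4318141. Levels are given in RPKM as deposited, which are reads scaled to the length of the transcript and to the mapped reads of the library, so they can be compared between genes. Differences are log2 fold changes, EtOH minus control, of quantile-normalized log2(RPKM + 0.5) values. They were tested with limma and adjusted by the Benjamini-Hochberg method over the 21718 transcripts above 0 in at least 1 liver, and an adjusted p below 0.05 made a call. Transcripts with a mean of 10 to 100 RPKM had a median log2 difference of -0.15 in the deposited values and 0.001 after normalization, over 3228 transcripts. The log2 fold changes of the abundant isotypes therefore lie above log2 of the ratios of their RPKM means.

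Of the 9 isotypes, 4 were called lower in EtOH livers (Tuba1c, Tuba4a, Tubb2a and Tubb2c) and 0 higher by limma. Of all transcripts tested, 1.29% were called lower and 1.13% higher, 2.42% together. Among those with a mean of at least 1 RPKM, which 8 of the 9 isotypes had, 2.35% were called lower. At an unadjusted p below 0.05 there were 5, the 4 called and Tubb5. The 4 called were 2 of the 4 alpha and 2 of the 5 beta isotypes measured. The median log2 fold change of the 9 was -0.15, and of all transcripts tested 0.0002. The study itself had named these 4 genes from the same livers, so their direction here is not independent evidence. It also assayed them by qRT-PCR on the same samples. Tuba1c, Tuba4a and Tubb2a were listed there as altered by both methods, and Tubb4b (here Tubb2c) was not in that list.

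**Figure D1:**
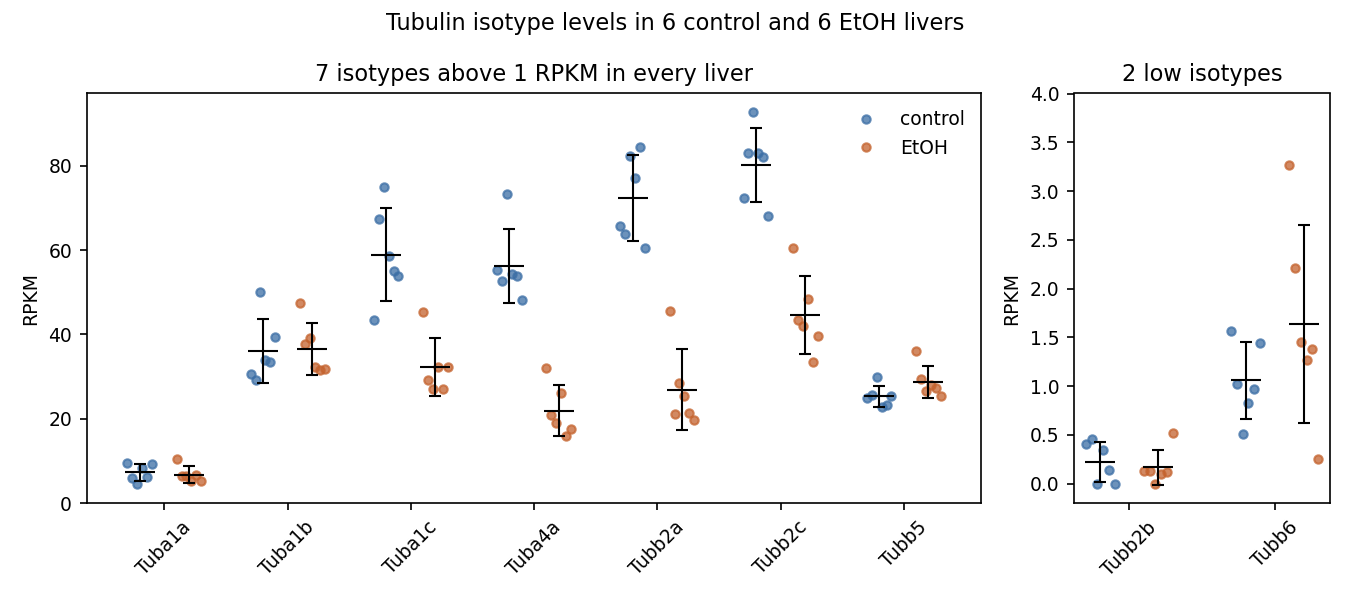
RPKM of each tubulin isotype in every liver, with 6 control (blue) and 6 EtOH (orange) animals; each point is 1 liver, and bars give the mean and SD. The left panel holds the 7 isotypes above 1 RPKM in every liver and the right panel, on its own axis, Tubb2b and Tubb6. Tuba4a, Tubb2a and Tubb2c show no overlap between groups, while the other isotypes do.

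Among the alpha isotypes, Tuba4a showed the largest difference. Tuba4a (chromosome 9, 74496509 to 74500192 as listed by the authors, on a build that the sources used here do not name) is the alpha isotype made without the C-terminal tyrosine that most other alpha genes encode. Its level ran from 48.1 to 73.3 RPKM in control livers, with a median of 54.1, and from 15.9 to 32.03 in EtOH livers, with a median of 19.9. The highest EtOH liver lay under the lowest control. The groups did not overlap for 3 of the 9 isotypes (Tuba4a, Tubb2a and Tubb2c), against 3.1% of all transcripts tested, 2.43% with EtOH below control and 0.677% with EtOH above. Overlap was read from the deposited values, in which transcripts of 10 to 100 RPKM had a median log2 difference of -0.15. The shares cover transcripts of every level, and none is given for abundant transcripts alone. The mean of Tuba4a fell from 56.2 ± 8.73 RPKM (SD, n = 6) to 21.9 ± 6.08 (SD, n = 6), a ratio of control to EtOH of 2.57. The log2 fold change was -1.21 (SE 0.15, limma adjusted p = 0.0026). These levels rest on 1810 reads in control and 987 in EtOH livers.

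Tuba1c (chromosome 7, 137809847 to 137817448) belongs to a cluster of near-identical alpha genes with Tuba1a and Tuba1b. It ran from 43.5 to 75.05 RPKM in control livers, with a median of 56.7, and from 27.0 to 45.3 in EtOH livers, with a median of 30.8. Of the EtOH livers, 5 of 6 lay below all controls, and EtOH animal 1, at 45.3 RPKM, lay above control animal 1, at 43.5. The mean was 58.9 ± 11.0 RPKM in control and 32.2 ± 6.82 in EtOH livers (SD, n = 6 each), or 1.83 times as much in control. On the log2 scale the difference was -0.69 (SE 0.13, limma adjusted p = 0.022). This call was lost without EtOH animal 2 (adjusted p = 0.053) or without EtOH animal 3 (adjusted p = 0.051).

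The other members of this cluster were not called. Tuba1b (chromosome 7, 137706856 to 137709839), an alpha isotype made in most tissues, ran from 29.1 to 49.96 RPKM in control livers, with a median of 33.7, and from 31.5 to 47.4 in EtOH livers, with a median of 35.0. The groups overlapped almost wholly, with a mean of 36.1 ± 7.68 in control and 36.6 ± 6.19 in EtOH livers (SD, n = 6 each). The log2 fold change was 0.19, with a 95% interval of -0.10 to 0.49 (limma adjusted p = 0.56). It was 0.03 without normalization between livers, 0.12 with median scaling and 0.11 without EtOH animal 1. Tuba1a (chromosome 7, 137729408 to 137733103), known above all as the alpha isotype of developing neurons, was lower in level and ran from 4.49 to 9.60 RPKM in control and from 5.23 to 10.5 in EtOH livers, with medians of 7.25 and 6.36. Its log2 fold change was 0.001, with a 95% interval of -0.45 to 0.45 (limma adjusted p = 1.0), and the sign turned with the scaling, to -0.10 without normalization between livers and -0.01 with median scaling.

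The exonic sequences of Tuba1a, Tuba1b and Tuba1c are close enough that reads may be shared among them, and the sources used here do not give how such reads were assigned. The split between them is therefore uncertain. If shared reads were kept within these genes, their sum depends on that split only through the lengths of the transcripts. If such reads were left out or given to other genes, the sum would change too. It was 102 ± 15.2 RPKM in control and 75.6 ± 13.8 in EtOH livers (SD, n = 6 each), a 1.35-fold difference. This is a ratio of deposited values, in which transcripts of 10 to 100 RPKM had a median log2 difference of -0.15. The ranges of the sum overlapped through EtOH animal 1, at 103 RPKM. Without that animal the ratio was 1.46 and the ranges did not overlap, and without control animal 3 it was 1.28 and they did. The ratio of Tuba1b to Tuba1c was 0.433 to 0.732 in control and 0.983 to 1.44 in EtOH livers, with no overlap.

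Among the beta isotypes, Tubb2a (chromosome 17, 37139177 to 37143049), a class II beta tubulin, fell the most. It ran from 60.5 to 84.5 RPKM in control livers, with a median of 71.3, and from 19.7 to 45.6 in EtOH livers, with a median of 23.4. No EtOH liver reached the lowest control. The mean fell from 72.3 ± 10.3 to 27.0 ± 9.69 RPKM (SD, n = 6 each), a ratio of control to EtOH of 2.68, with 2592 reads in control and 1351 in EtOH livers. The log2 fold change was -1.30 (SE 0.18, limma adjusted p = 0.0041). Tubb2b, its near copy on the same chromosome (37087922 to 37090967), is the class II isotype of developing brain and was close to the floor here, at 0 to 0.457 RPKM in control and 0 to 0.525 in EtOH livers. It rested on 8 reads in each group and was above 0 in 4 control and 5 EtOH livers, so a difference was not detectable at this depth (log2 fold change -0.15, limma adjusted p = 0.75). The fold change itself ran from -0.29 to -0.05 as single livers were left out and was -0.31 with a pseudocount of 0.1. Reads shared between Tubb2a and Tubb2b matter less for their sum, if they were kept within these genes. That sum was 72.5 ± 10.2 RPKM in control and 27.1 ± 9.63 in EtOH livers (SD, n = 6 each), or 2.67 times as much in control.

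Tubb2c (chromosome 3, 3387050 to 3389502), the class IVb beta tubulin and the most abundant isotype in both groups, ran from 68.1 to 92.7 RPKM in control livers, with a median of 82.4. In EtOH livers it ran from 33.5 to 60.5, with a median of 42.8, again with no overlap. The mean fell from 80.1 ± 8.77 to 44.6 ± 9.19 RPKM (SD, n = 6 each), a ratio of 1.80. On the log2 scale the difference was -0.69 (SE 0.12, limma adjusted p = 0.013).

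Tubb5 (chromosome 20, 3060265 to 3064734), a beta isotype made in most tissues, stood apart from the other abundant beta genes. It ran from 22.9 to 29.9 RPKM in control livers, with a median of 25.1, and from 25.5 to 36.1 in EtOH livers, with a median of 27.7. The groups overlapped, although the EtOH range lay somewhat higher. The log2 fold change was 0.34 (SE 0.09, limma adjusted p = 0.074), and the ratio of the EtOH to the control mean was 1.14. The positive sign was kept under every scaling tried, at 0.18 without normalization between livers and 0.27 with median scaling. It was called higher, at a limma adjusted p of 0.043, when transcripts under a mean of 1 RPKM were left out before normalization. That run, refitted throughout, called 3.79% of the remaining transcripts higher. Tubb6 (chromosome 18, 63919776 to 63929415), the class V beta tubulin, was low, at 0.507 to 1.57 RPKM in control and 0.252 to 3.27 in EtOH livers, with 42 and 88 reads in all. Its log2 fold change of 0.34 had a 95% interval of -0.40 to 1.07 (limma adjusted p = 0.65), and was 0.15 without EtOH animal 1 and 0.61 without EtOH animal 6.

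**Figure D2:**
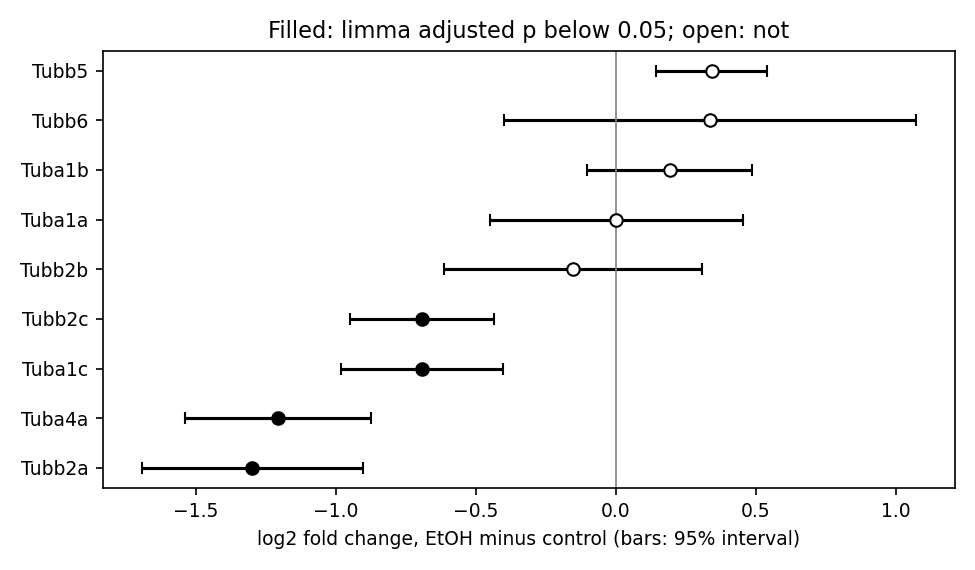
Log2 fold change of each isotype, EtOH minus control, from limma on quantile-normalized values of 6 livers a group; bars span the 95% interval, and filled points have an adjusted p below 0.05. Tubb2a and Tuba4a lie near -1.30 and -1.21, Tubb2c and Tuba1c at -0.69, and the other isotypes between -0.15 and 0.34.

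The order of the isotypes by level differed between the groups. In control livers it was Tubb2c, Tubb2a, Tuba1c, Tuba4a, Tuba1b, Tubb5, Tuba1a, Tubb6 and Tubb2b. From Tubb2c down to Tubb5, the ranges of neighbours overlapped, and the steps below that did not overlap. In EtOH livers the order was Tubb2c, Tuba1b, Tuba1c, Tubb5, Tubb2a, Tuba4a, Tuba1a, Tubb6 and Tubb2b. Here the ranges of neighbours overlapped down to Tuba4a, and Tuba4a, Tuba1a and Tubb6 were separated from one another, while Tubb6 and Tubb2b overlapped. Tuba1b thus stood at place 5 in control and place 2 in EtOH livers, and Tubb2a at places 2 and 5.

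Summed over the 9 isotypes, tubulin was 338 ± 38.0 RPKM in control and 199.7 ± 41.7 in EtOH livers (SD, n = 6 each), or 1.69 times as much in control. Control livers ran from 304 to 408 RPKM and EtOH livers from 165 to 281, without overlap. The alpha isotypes summed to 158 ± 22.5 RPKM in control and 97.5 ± 19.3 in EtOH livers, a ratio of 1.63. The beta isotypes summed to 179 ± 18.2 and 102 ± 22.6 RPKM, a ratio of 1.75. Both classes were lower, and the ratio of alpha to beta was 0.885 ± 0.0808 in control and 0.958 ± 0.0348 in EtOH livers, with overlapping ranges. These sums are descriptions, without a test, since they were formed from genes already known to differ. They are of deposited values, in which transcripts of 10 to 100 RPKM had a median log2 difference of -0.15. The highest sums were those of control animal 3 and EtOH animal 1 within their groups, and without both the ratio for all isotypes was 1.76.

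**Figure D3:**
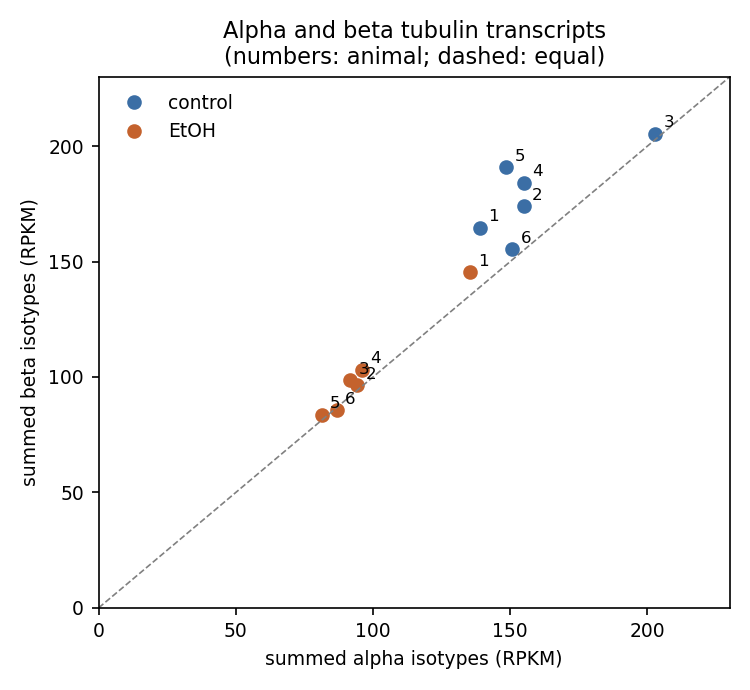
Summed beta against summed alpha isotypes in RPKM, 1 point per liver with its animal number; the dashed line marks equal sums. All 6 EtOH livers lie below the lowest control on both axes, with EtOH animal 1, at 135 alpha and 146 beta, nearest to the controls, and most livers lie just above the line.

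The make-up of the tubulin pool was compared as the share of each isotype in the summed tubulin RPKM of its own liver. A share needs no normalization between livers. The 9 shares sum to 100% and are not independent, so a fall in some raises others. Each was put to a two-sided exact permutation test that enumerated every split of the 12 livers into 6 and 6, unadjusted, with 0.0022 as the smallest p it can give. At p below 0.05 there were 2 lower and 4 higher shares. The sum under every share holds isotypes already known to be lower. These p values are therefore not evidence separate from those falls, and a higher share does not show a higher level.

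Tuba4a made up 15.7 to 18.2% of tubulin in control livers and 9.65 to 13.1% in EtOH livers, and its mean fell from 16.6 ± 1.14 to 10.9 ± 1.28% (SD, n = 6 each, exact permutation p = 0.0022). Tubb2a made up 19.4 to 24.9% and 11.1 to 16.2%, with means of 21.4 ± 2.11 and 13.2 ± 2.01% (exact permutation p = 0.0022). For both, the highest EtOH liver lay under the lowest control.

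Tubb5 made up 6.75 to 8.31% of tubulin in control livers and 12.8 to 16.6% in EtOH livers, with means of 7.54 ± 0.667 and 14.6 ± 1.30% (SD, n = 6 each, exact permutation p = 0.0022). Tuba1b made up 8.85 to 12.9% and 16.2 to 20.6%, with means of 10.7 ± 1.56 and 18.5 ± 1.68% (exact permutation p = 0.0022). In both cases the groups did not overlap, whereas the RPKM of these genes did. Mean RPKM of Tuba1b was 36.1 in control and 36.6 in EtOH livers, so its larger share goes with the lower sum. Its share also depends on the uncertain split from Tuba1a and Tuba1c. The shares of the low isotypes Tuba1a, from 2.23 ± 0.795 to 3.37 ± 0.511% (exact permutation p = 0.015), and Tubb6, from 0.326 ± 0.146 to 0.785 ± 0.379% (exact permutation p = 0.026), were also higher, with overlap.

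For Tubb2c and Tuba1c, both lower in RPKM, the difference in share did not pass the test. Tubb2c made up 23.8 ± 1.11% in control and 22.3 ± 1.36% in EtOH livers (SD, n = 6 each, exact permutation p = 0.078), and Tuba1c 17.4 ± 2.06 and 16.2 ± 1.47% (exact permutation p = 0.29). The Tubb2c share did pass as a share of recovered reads (exact permutation p = 0.015), without control animal 6 (p = 0.043) and without EtOH animal 4 (p = 0.026, exact permutation). The Tuba1c difference was -1.18 percentage points and -0.566 without control animal 2. The share of Tubb2b was under 1% in every liver (exact permutation p = 0.76). Within the alpha class, Tuba4a made up 35.5% in control and 22.3% in EtOH livers on average, and Tuba1b 22.7 and 37.8%. Within the beta class, Tubb2a made up 40.3 and 25.9%, Tubb5 14.2 and 28.7%, and Tubb2c 44.7 and 43.8%. The ratio of Tubb5 to Tubb2a was 0.275 to 0.421 in control livers and 0.792 to 1.39 in EtOH livers.

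**Figure D4:**
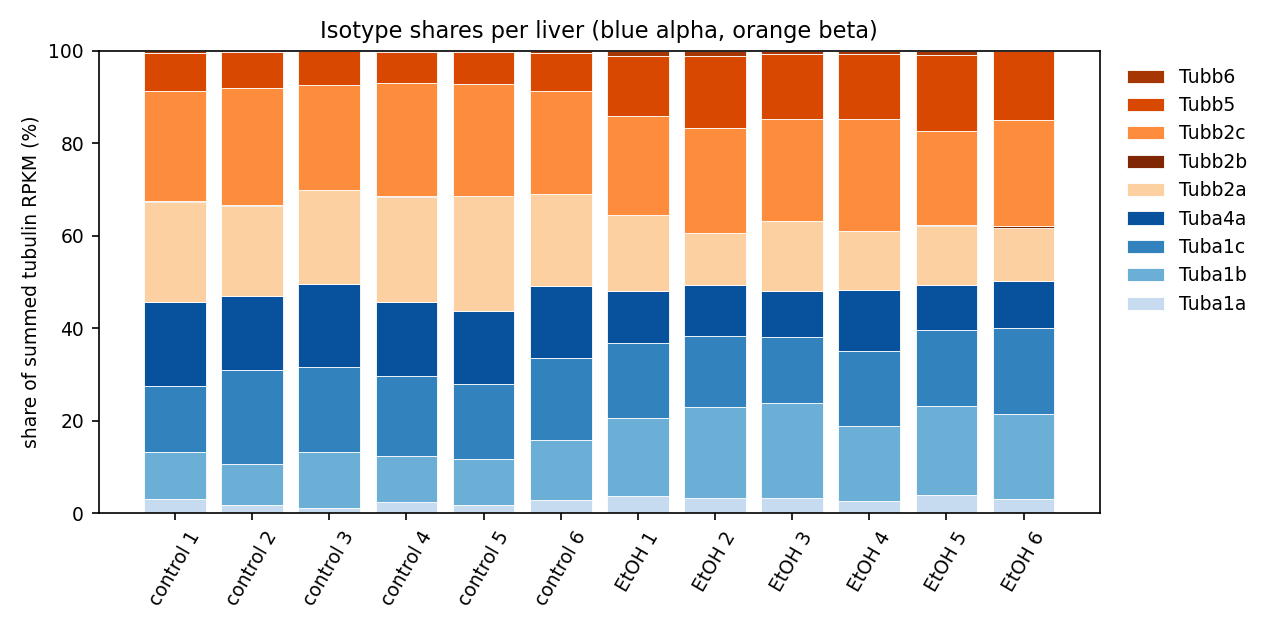
Share of each isotype (%) in the summed tubulin RPKM of each of the 12 livers, alpha isotypes in blue below and beta isotypes in orange above. Tubb5 and Tuba1b take larger shares, and Tuba4a and Tubb2a smaller ones, in each EtOH liver than in any of the controls.

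Single livers stood out across isotypes. EtOH animal 1 had the highest RPKM of its group in 6 of the 6 isotypes with a mean of at least 10 RPKM, and control animal 3 the highest of its group in 5 of 6. EtOH animal 5 was the lowest of its group in 4 of 6. Leaving out EtOH animal 1, the log2 fold changes were -1.33 for Tuba4a, -1.47 for Tubb2a, -0.79 for Tubb2c and -0.80 for Tuba1c, with limma adjusted p values of 0.00051, 0.00023, 0.0019 and 0.0027. Leaving out control animal 3 instead, they were -1.15, -1.28, -0.68 and -0.64 in the same order, with limma adjusted p values of 0.006, 0.011, 0.028 and 0.041.

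After the group means were subtracted from the normalized log2 values, the isotypes were compared across the 12 livers. Among the 4 called lower, Pearson's r was 0.921 between Tuba4a and Tubb2c, 0.808 between Tubb2a and Tubb2c, 0.768 between Tuba4a and Tubb2a, 0.763 between Tubb2c and Tuba1c, 0.693 between Tuba4a and Tuba1c and 0.592 between Tubb2a and Tuba1c. Among the isotypes that were not called, r was 0.754 between Tubb5 and Tuba1b and 0.753 between Tubb6 and Tuba1a, and 0.368 between Tuba1a and Tuba1b. Values across the call were also high, at 0.734 between Tuba4a and Tubb5. The lowest r was 0.061, between Tuba1c and Tuba1a. These are descriptions over 12 livers that share a lane and, in part, reads. EtOH animal 1 and control animal 3, which stood out above, enter every r, and values without them are not given.

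Among 9155 other transcripts with a mean of at least 1 RPKM and a gene symbol known to the RefSeq table, Rmi1, a subunit of the complex that resolves recombination intermediates, and the zinc finger gene Zfp330 had the values most like Tuba4a and Tubb2c. For Tubb2c, r was 0.935 with Rmi1 and 0.885 with Zfp330, and for Tuba4a 0.875 and 0.912. Neither was called, with log2 fold changes of 0.35 for Rmi1 (limma adjusted p = 0.07) and -0.03 for Zfp330 (limma adjusted p = 0.91). Tubb2a was most like RGD1303127 (r = 0.92) and Kpna2, an importin that carries proteins into the nucleus (r = 0.886), and for Tuba1c, r was 0.861 with Prr16. Tubb5 was most like the ribosomal protein gene Rpl37 (r = 0.941) and Raly, which encodes an RNA-binding protein (r = 0.892). Tuba1b was most like Camta2 (r = 0.931) and Mterf (r = 0.896). Tuba1a and Tubb6 shared Smc4, a condensin subunit, with r of 0.894 and 0.909, followed by Ubn2 (r = 0.893) for Tuba1a and Cdkn1a, a cell cycle inhibitor (r = 0.905), for Tubb6. None of these transcripts was called. They were chosen from 9155 values for each isotype, so no p is given. EtOH animal 1 and control animal 3 enter these values too.

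The machinery that makes and uses tubulin was read from 8 lists of 111 genes in all, of which 91 were tested, 1 was at 0 in all livers and 19 had no row of that name. Of the 91, 2 were called lower and 0 higher by limma, against 1.29 and 1.13% of all transcripts, and 16 had an unadjusted p below 0.05. Their median log2 fold change was 0.01.

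Both genes called belong to the CCT chaperonin, the ring that folds newly made actin and tubulin, of which all 8 subunits were tested. Cct3 ran from 50.1 to 67.5 RPKM in control and from 35.3 to 43 RPKM in EtOH livers, and its mean fell from 56.5 ± 6.44 to 40.7 ± 2.85 RPKM (SD, n = 6 each; log2 fold change -0.29, SE 0.06, limma adjusted p = 0.025). Cct6a ran from 39.1 to 51.5 RPKM in control and from 29.3 to 37.6 RPKM in EtOH livers, and its mean fell from 46.7 ± 4.85 to 32.8 ± 3.05 RPKM (log2 fold change -0.34, SE 0.08, limma adjusted p = 0.046). Neither overlapped between groups in the deposited values, and the same held for Tcp1, Cct7 and Cct8, which were not called. Of all transcripts tested, 3.1% did not overlap. Tcp1 (adjusted p = 0.072) and Cct8 (adjusted p = 0.15) had unadjusted p below 0.05, and Cct2 and Cct4 had log2 fold changes of 0.02 each. The median of the 8 was -0.13, on a normalized scale that lies above the deposited one. The calls were often lost when a single liver was left out. Of the 8 subunits, 0 were called without control animal 4 or without EtOH animal 2, 4 or 5. Only 1 was called without control animal 1, 2 or 5 or without EtOH animal 3 or 6.

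The other partners were not called. Prefoldin hands tubulin to the chaperonin, and its subunit with the smallest p was Pfdn2, at 13.7 ± 1.57 RPKM in control and 10.8 ± 1.72 in EtOH livers (4 tested, limma adjusted p = 0.41). The tubulin folding cofactors assemble the heterodimer, and Tbce among them was at 14.3 ± 2.34 and 11.2 ± 1.60 RPKM (7 tested, limma adjusted p = 0.44). The other tubulins, 5 tested, had their smallest p in Tubg1, the gamma tubulin that nucleates microtubules, at 7.82 ± 1.37 and 5.38 ± 1.14 RPKM (limma adjusted p = 0.20).

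In the gamma-tubulin ring complex, which holds gamma tubulin at the nucleation site, the smallest p of 5 tested was that of Tubgcp5, at 2.30 ± 0.535 and 1.96 ± 0.347 RPKM (limma adjusted p = 0.65). Of 12 tubulin modifying enzymes, it was that of Ttll1, a subunit of a polyglutamylase, at 0.786 ± 0.303 and 0.389 ± 0.282 RPKM (limma adjusted p = 0.27). Of 24 microtubule-associated proteins, Map4, which stabilizes microtubules outside neurons, was at 10.3 ± 1.03 and 11.7 ± 0.976 RPKM (log2 fold change 0.29, limma adjusted p = 0.064), and the median of the list was 0.13. Of 26 genes of dynein, dynactin and the transport kinesins, the smallest p was that of Dynlrb1, a dynein light chain, at 54.9 ± 4.46 and 44.2 ± 4.49 RPKM (limma adjusted p = 0.18). Their median was 0.04.

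**Figure D5:**
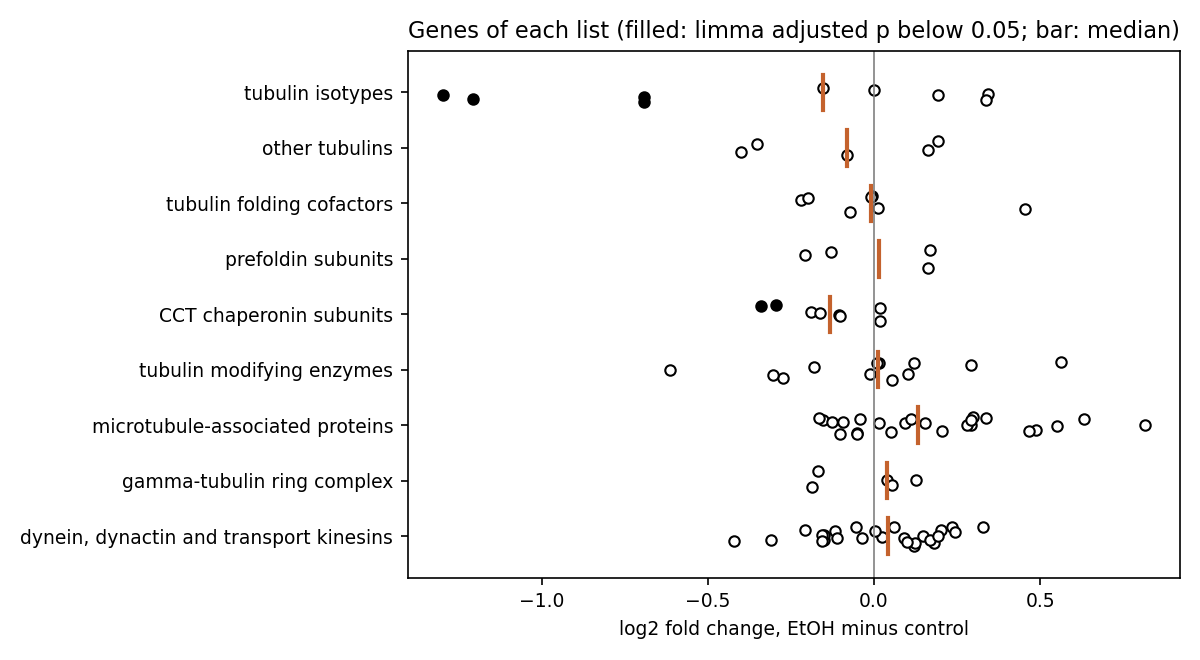
Log2 fold change, EtOH minus control, of every tested gene in the tubulin isotypes and the 8 lists of partner genes; each point is 1 gene, filled where the limma adjusted p is below 0.05, and the orange bar is the median. Filled points are the 4 isotypes and the chaperonin subunits Cct3 and Cct6a, and list medians lie between -0.15 and 0.13.

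Markers of the cell types that liver holds were read beside these values, as summed RPKM. Hepatocyte markers, 5 of 6 with a row and led by albumin, summed to 65867 to 92832 in control and 74691 to 100484 in EtOH livers, and the liver is labelled as its markers show. Of these, Cps1, the first enzyme of the urea cycle, was higher in EtOH livers (log2 fold change 0.58, limma adjusted p = 0.022). No marker of any of the 7 lists was called lower. Over all transcripts tested, 1.29% were called lower and 1.13% higher, so none lower among so few markers says little by itself. The markers called higher were Cps1, Cd163, Clec4f, Cdh5 and Ccnb1, a larger part of the markers than of all transcripts.

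Kupffer cell markers (4 of 6 with a row) summed to 67.1 to 108 in control and 95.4 to 126 in EtOH livers, with Cd163 (log2 fold change 0.66, limma adjusted p = 0.043) and Clec4f (0.48, adjusted p = 0.025) called higher. Endothelial markers (4 of 6) summed to 27.7 to 35.2 and 32.7 to 45.5, with Cdh5 called higher (0.46, adjusted p = 0.049). Stellate cell markers (5 of 6) summed to 5.28 to 9.75 and 8.15 to 13.2, lymphocyte markers (6 of 6) to 4.8997 to 8.67 and 5.55 to 10.3, and cholangiocyte markers (3 of 5) to 4.27 to 8.16 and 3.69 to 7.67, with none called. Markers of dividing cells (3 of 6) were near the floor, at 0.432 to 1.53 in control and 1.12 to 7.54 in EtOH livers. The highest of these was EtOH animal 1, which was also the highest EtOH liver for each abundant tubulin, and the cyclin gene Ccnb1 was called higher (7 reads in control and 82 in EtOH livers, limma adjusted p = 0.034). No marker with a row was at 0 in all livers. The part of cell make-up in the tubulin values was not tested.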

How the data were processed

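Libraries of poly(A) RNA from 12 livers were sequenced in 101-nucleotide paired-end reads. The authors mapped them with CLCbio Genomics Workbench and deposited RPKM values for each liver. The genome build and the handling of reads that match several genes are not given in the sources used here. The authors also deposited their own comparison: a score column each for signed fold change and test statistic, and a p-value before and after correction. These columns were not used.

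Whole reads were recovered from the steps between low RPKM values. They came out whole, within 0.01, for 21718 of 21718 transcripts above 0. Levels were tested with limma 3.58.1 (R 4.3.3) on quantile-normalized log2(RPKM + 0.5), with a trend of variance on mean, Benjamini-Hochberg adjustment over all 21718, and a threshold of 0.05. The procedure was tested on simulated data. Shares were compared by exact permutation in Python 3.11.15. The 12 animals are separate rats.

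The members, gene lists and tests were chosen with earlier results of these data known. Named were all isotypes; in each list the genes called, up to 4, or else the gene with the smallest p; Tcp1, Cct2, Cct4 and Cct8, added after their values were seen; markers called; and per isotype the 2 transcripts most correlated within groups, of which 1 is not reported here. Cct7 was also named after its values were seen. List symbols were matched by name for 122 of 152, 5 of them through older symbols. Promoters, for 10 of 10 isotypes, came from RefSeq (GRCr8). Alternatives were other pseudocounts (0.1 and 1), scalings, square-root values, minimum mean RPKM (0.1 and 1), no trend, voom on the recovered reads, summed rows, an animal block and each liver left out. The sums without EtOH animal 1 or control animal 3 and the TATAA letters were chosen after seeing the data.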

Additional observations from a re-analysis of the deposited data

Results flagged for a closer look

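Of 44 groups of 6 livers examined for a liver that stands far from the rest, 12 had one, where the gap to its neighbour, as a part of the range of the group, was above Dixon's critical value. Chance gives such a gap in about 1 in 20 groups, and the sums and isotypes share livers.

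EtOH animal 1 was the highest EtOH liver in most of them. Its gap was 0.660 of the range for Tubb2a (45.6 RPKM, next 28.5), 0.713 for Tuba1c (45.3, next 32.3), 0.627 for Tubb5 (36.1, next 29.5) and 0.714 for Tuba1a (10.5, next 6.76). For the sums it was 0.704 over all isotypes (281 RPKM, next 199.2), 0.727 over the alpha isotypes and 0.684 over the beta isotypes. Control animal 3 was the highest control liver for Tuba4a, with a gap of 0.715 of the range (73.3 RPKM, next 55.3), for all isotypes, with 0.658, and for the alpha isotypes, with 0.748. EtOH animal 6 was the highest for Tubb2b, with 0.742, and for the share of Tubb2b, with 0.761, on 4 reads.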

How the results depend on the processing

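Tuba4a and Tubb2a were called lower under every alternative run. Their log2 fold changes were -1.37 to -1.19 and -1.46 to -1.28 across the settings on the log2 scale, and -1.33 to -1.12 and -1.47 to -1.21 when single livers were dropped. The animal numbers do not pair the livers (correlations of same-numbered livers from -0.067 to 0.032 over 6 pairs). With the number as a replicate block, 2 isotypes were called lower, and Tubb2c (adjusted p = 0.058) and Tuba1c (0.12) were not. Without a liver, 3 to 4 isotypes were called lower. Tuba1c had an adjusted p of 0.050, just above the threshold, with the unmoderated test on square-root values. One isotype, Tubb5, was called higher (1 called) with a minimum mean of 1 RPKM or with the rows of a gene summed (adjusted p = 0.043 and 0.041). The log2 fold change of Tuba1a turned to -0.10 without normalization, -0.0101 with median scaling, -0.0202 with voom and -0.0037 with summed rows. It ranged from -0.13 to 0.0904 without a liver. On square-root values the difference of Tuba1a was -0.003 with both tests, in square roots of RPKM and not log2 units. Over the partner lists, genes called lower were 6 without normalization, 0 with the replicate block and 0 to 2 without a liver, and 1 was called higher with a minimum mean of 1 RPKM. The difference in the share of Tubb2b ranged from -0.0217 (without EtOH animal 6) to 0.0392 percentage points without a liver. The counts of shares at p below 0.05 stayed within 1.5 times, although the share of Tubb6 lost the threshold with the replicate block (exact permutation p = 0.062). The cause of these changes was not tested. Tubb2b, with 8 reads a group, and Tubb6, with 42 and 88, rest on the fewest reads.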
